A study of Mus musculus with 24 samples.

Results

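The Gpr39 knockout line of mpkCCD cells carried less RNA than wild-type cells from several genes that mark particular kidney or urinary tract cell types, namely Rhcg, Upk3a, Cdh2, Ass1 and Lrp2, and from St6gal1, a sialyltransferase gene. A further marker, Car2, was higher in the knockout line. These 7 genes, of 12224 rows in the table, are described here. They were picked by name because their levels differed between knockout and wild-type cells in these same libraries. The knockout against wild-type values below are therefore a description of that choice, with no test. All 7 passed the filter on low values, as did 11557 rows in all.

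The libraries were made from polarized mpkCCD cells, an epithelial line from the mouse cortical collecting duct, and formed 4 groups of 6. Gpr39 knockout (KO) cells and wild-type (WT) cells each received either 1 µM of the GPR39 agonist cpd1324 or its vehicle, 0.1% DMSO, on the basolateral side for 2 h. Zinc chloride at 10 µM was present in every group. Before that the cells had polarized for 9 days on permeable inserts, without the vasopressin analogue dDAVP, and had been kept for 24 h in a simpler medium. The labels do not give the number of KO clones or the edited part of Gpr39. KO here thus stands for a cell line set against another cell line, and loss of the receptor and other differences between the lines cannot be told apart.

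The collecting duct is built from principal cells, which take up water and sodium, and intercalated cells, which move acid, base and ammonia. Proximal tubule cells, far upstream, reabsorb filtered protein and make arginine. Urothelial cells line the urinary tract and cover their surface with uroplakin plaques. RHCG is an ammonia channel and carbonic anhydrase II (Car2) an enzyme of carbon dioxide hydration, both abundant in intercalated cells. Uroplakin 3a (Upk3a) is a plaque protein of urothelium. N-cadherin (Cdh2) is an adhesion protein of proximal tubule, argininosuccinate synthase (Ass1) catalyses a step of arginine synthesis, and megalin (Lrp2) is the large endocytic receptor of the proximal brush border. ST6GAL1 is a Golgi enzyme that caps glycoproteins with sialic acid. It stands in none of the cell type marker lists used here.

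The promoter windows of Rhcg, Upk3a, Ass1 and Lrp2 are shown as examples of genes that were lower in KO cells, with KO levels between 3.45% and 63.6% of WT under vehicle. Each runs over the 250 bases before the annotated start, from RefSeq on GRCm38.p6. The coordinates are chr7:79617658-79617907 on the minus strand for Rhcg and chr15:85016891-85017140 on the plus strand for Upk3a. They are chr2:31470020-31470269 on the plus strand for Ass1 and chr2:69586030-69586279 on the minus strand for Lrp2. All read 5′ to 3′ in the direction of the gene, and capitals mark motif matches on either strand.
Rhcg: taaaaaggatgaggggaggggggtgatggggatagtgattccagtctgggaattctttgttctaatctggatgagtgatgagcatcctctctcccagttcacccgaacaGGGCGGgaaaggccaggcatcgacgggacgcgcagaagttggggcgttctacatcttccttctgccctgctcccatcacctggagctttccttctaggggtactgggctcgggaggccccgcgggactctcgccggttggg
Upk3a: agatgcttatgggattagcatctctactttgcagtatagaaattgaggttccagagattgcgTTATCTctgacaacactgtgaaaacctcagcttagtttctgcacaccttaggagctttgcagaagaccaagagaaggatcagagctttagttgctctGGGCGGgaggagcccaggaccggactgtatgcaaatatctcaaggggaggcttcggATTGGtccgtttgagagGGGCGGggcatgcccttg
Ass1: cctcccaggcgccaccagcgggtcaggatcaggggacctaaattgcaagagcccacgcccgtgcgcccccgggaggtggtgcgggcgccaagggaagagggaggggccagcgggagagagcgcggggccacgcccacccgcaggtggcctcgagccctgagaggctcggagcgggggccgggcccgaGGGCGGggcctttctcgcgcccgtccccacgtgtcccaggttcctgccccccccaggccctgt
Lrp2: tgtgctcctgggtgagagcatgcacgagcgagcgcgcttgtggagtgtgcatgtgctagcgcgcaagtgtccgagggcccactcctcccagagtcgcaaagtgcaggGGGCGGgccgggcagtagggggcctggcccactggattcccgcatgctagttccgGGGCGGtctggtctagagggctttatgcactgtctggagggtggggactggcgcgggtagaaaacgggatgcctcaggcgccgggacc

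The strings searched on both strands were AGATAA as the GATA site, GTTAAT as the HNF1 half-site, GGGCGG as the box of that composition bound by Sp factors (the GC box) and TATAAA as the core promoter element. The others were CCAAT, named after its own letters, TGANTCA for sites of the AP-1 family and CCGGAAG for the core bound by ETS family members. The GC box was the motif these 4 windows had in common, and 32.7% of 32851 RefSeq windows of the same length hold it. The match lay 141 to 136 bases before the start in Rhcg and 63 to 58 bases before it in Ass1. Upk3a and Lrp2 each had 2 matches. Upk3a also held a GATA match 188 to 183 bases before its start, a motif in 9.99% of all windows, and a CCAAT match, a motif in 33.8%. The share of G and C differed widely, from 49.6% in Upk3a to 75.6% in Ass1, against a median of 52.4% over all windows. A match is a string of letters in the window and was not tested as a binding site. St6gal1 has 3 annotated starts in the table, and none of its windows held the GC box, while each held the CCAAT string. Car2 was looked up but had no window there, and Cdh2 was not looked up.

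Levels are given in scaled units, which are read counts per gene length on a common scale, so that they can be compared between genes as well as between libraries. Differences are on the log2(scaled units + 0.5) scale, with the standard error from limma. The recovered depth was 29.8 to 51.9 M reads per library. The targeted gene, Gpr39, stood at 9.37 ± 0.645 scaled units in KO cells and 21.6 ± 1.61 in WT cells under vehicle (SD, n = 6 each), with no overlap. Library 6 of the KO vehicle group stood apart from its group, with a root mean square deviation of 0.328 on the log2 scale, against 0.114 to 0.175 in the other 23 libraries. Leaving it out moved the KO minus WT differences of the 7 genes under vehicle by at most 0.0345. The measurement is of bulk RNA, so fewer cells of a type and less RNA per cell cannot be told apart.

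**Figure D1:**
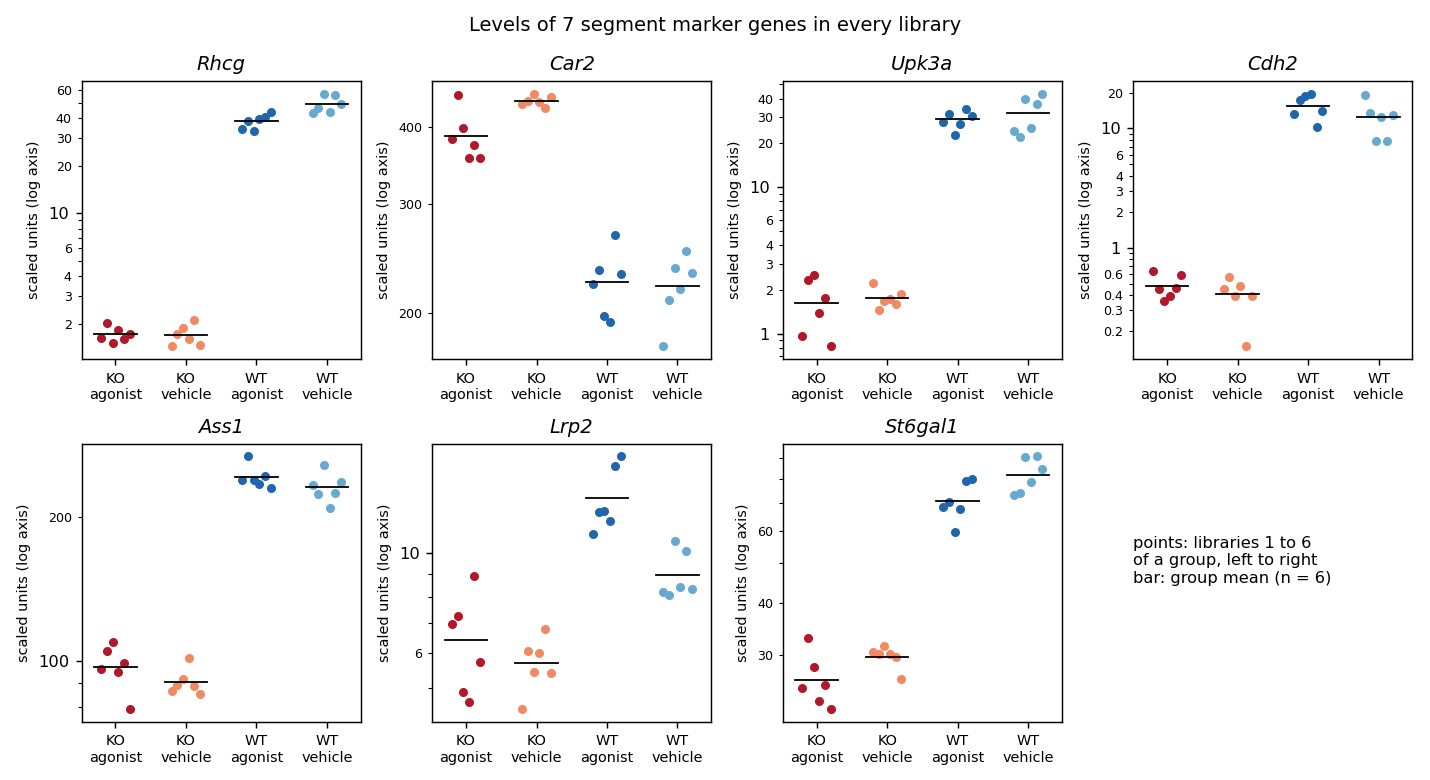
Level of each of the 7 genes in every library, in scaled units on a log axis, by group; points are libraries and the bar is the group mean (n = 6). Rhcg, Upk3a and Cdh2 lie far below WT in KO cells, Car2 lies above it, and Lrp2 has overlapping KO agonist and WT vehicle libraries.

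The lowest KO levels belonged to genes of 3 different cell types. Rhcg, the ammonia channel of intercalated cells, ranged from 1.43 to 2.12 scaled units in KO vehicle libraries with a median of 1.66, and in WT vehicle libraries from 43.0 to 57.3 with a median of 47.9. The KO level was 3.45% of the WT level under vehicle and 4.45% with agonist. No KO library came near a WT library. The KO values rest on 32 to 58 reads per library, so Rhcg RNA was low but present in all 12 KO libraries. The KO minus WT difference was -4.50 ± 0.09 under vehicle and -4.13 ± 0.09 with agonist, ranking 3rd lowest of 11557 rows under vehicle. With a pseudocount of 2 the difference under vehicle was -3.79.

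Upk3a, the urothelial plaque protein, ranged from 1.45 to 2.21 scaled units in KO vehicle libraries with a median of 1.69, and in WT vehicle libraries from 21.9 to 43.3 with a median of 31.2. With agonist it ranged from 0.820 to 2.51 in KO cells and from 22.7 to 34.3 in WT cells. KO and WT libraries lay well apart under both treatments, at 10 to 35 reads per KO library. Within the WT vehicle group Upk3a varied more than any of the 7 genes but Cdh2, with a coefficient of variation of 28.6%, against 34.0% for Cdh2. Its KO minus WT difference was -3.81 ± 0.18 under vehicle and -3.85 ± 0.18 with agonist. With a pseudocount of 2 it was -3.13 under vehicle.

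Cdh2, encoding N-cadherin, was the scarcest in KO cells. It ranged from 0.149 to 0.573 scaled units in KO vehicle libraries with a median of 0.420, and in WT vehicle libraries from 7.91 to 19.2 with a median of 12.8. With agonist the KO libraries held 0.356 to 0.638 scaled units and the WT libraries 10.3 to 19.6. The groups did not overlap, and KO libraries had 6 to 33 reads. The KO minus WT difference was -3.78 ± 0.18 under vehicle and -4.00 ± 0.18 with agonist. Because the KO level lies near the pseudocount of 0.5, the size of this difference depends on it, and it ran from -4.89 to -2.53 under vehicle over the settings tried. On the linear scale the KO level was 3.28% of the WT level under vehicle and 3.10% with agonist.

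Ass1 and St6gal1 were at 39.1% and 36.3% of their WT level in KO cells under vehicle. Ass1, the arginine synthesis enzyme, ranged from 85.3 to 101 scaled units in KO vehicle libraries with a median of 88.7, and in WT vehicle libraries from 209 to 257 with a median of 229. St6gal1, the sialyltransferase, ranged from 26.3 to 31.5 in KO vehicle libraries with a median of 30.2, and in WT vehicle libraries from 73.1 to 90.8 with a median of 81.7. Both genes were separate between the lines in every library. The KO minus WT difference under vehicle was -1.35 ± 0.06 for Ass1 and -1.44 ± 0.08 for St6gal1. With agonist the differences were -1.32 ± 0.06 and -1.43 ± 0.08, and the KO levels came to 40.1% and 36.8% of WT.

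Lrp2, encoding megalin, differed least between the lines under vehicle. It ranged from 4.49 to 6.77 scaled units in KO vehicle libraries with a median of 5.71, and in WT vehicle libraries from 8.06 to 10.6 with a median of 8.36. With agonist it ranged from 4.66 to 8.91 in KO cells with a median of 6.32, and in WT cells from 11.0 to 16.4 with a median of 12.4. The lines were separate within each treatment, but the highest KO agonist library lay above the lowest WT vehicle libraries. The KO minus WT difference was -0.61 ± 0.13 under vehicle and -1.02 ± 0.13 with agonist. Both rest on at least 828 reads per library.

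Car2, the intercalated cell carbonic anhydrase, was the exception in direction. It ranged from 429 to 452 scaled units in KO vehicle libraries with a median of 439, and in WT vehicle libraries from 177 to 252 with a median of 226. With agonist it ranged from 356 to 450 in KO cells and from 194 to 268 in WT cells. Every KO library lay above every WT library. The KO minus WT difference was 1.00 ± 0.08 under vehicle and 0.78 ± 0.08 with agonist, so the KO level was 199% and 172% of WT. Car2 was also the most abundant of the 7 genes, with a mean over all libraries above that of 96.0% of rows. Rhcg and Car2, both intercalated cell genes, thus lay on opposite sides of WT.

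KO and WT libraries of all 7 genes were separate under vehicle and also with agonist. Over all rows the share with separate groups was 27.3% under vehicle and 46.3% with agonist. With the treatments put together, 6 of 7 genes had all 12 KO libraries on a single side of all 12 WT libraries, Lrp2 being the exception, and 11.9% of all rows did. Since the genes were chosen for this contrast, nothing is read from these counts. The comparisons under vehicle and with agonist use different libraries, but both treatments entered the choice.

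In the order of group means, the groups on either side of the step between the lines did not overlap for 6 of the 7 genes. The genes were chosen for this contrast, so nothing is read from that count either. Of all rows, 11.9% had all 12 KO libraries on a single side of all 12 WT libraries. For Rhcg, Upk3a and St6gal1 the order was WT vehicle, WT agonist and then the KO groups, with overlap between the WT groups and between the KO groups. For Cdh2 and Ass1 it was WT agonist, WT vehicle, KO agonist and KO vehicle, again with overlap within each line. For Car2 the KO groups came first, and the WT agonist and WT vehicle groups were 3.66 scaled units apart with a pooled SD of 26.6. Lrp2 alone had separate WT agonist and WT vehicle libraries, while its WT vehicle and KO agonist libraries overlapped, with means 2.55 scaled units apart and a pooled SD of 1.39.

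In WT cells given agonist for 2 h, limma called 3 of 7 genes, where 57.2% of all rows were called. Lrp2 rose, with a difference of 0.54 ± 0.13 (limma adjusted p = 0.000866). Its WT agonist libraries all lay above its WT vehicle libraries, a separation that 37.5% of all rows showed and none of the other 6 genes did. Rhcg fell, by 0.35 ± 0.09 on the log2 scale (limma adjusted p = 0.00119), with 33.4 to 43.6 scaled units in WT agonist libraries and 43.0 to 57.3 in WT vehicle libraries. Those groups met only at their edges.

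St6gal1 also fell in WT cells, by 0.21 ± 0.08 (limma adjusted p = 0.0337), with 59.4 to 80.0 scaled units in WT agonist libraries and 73.1 to 90.8 in WT vehicle libraries. This call was lost when any of 6 WT libraries was left out, namely libraries 1, 3 or 4 with agonist or 3, 5 or 6 with vehicle, with adjusted p up to 0.102. Cdh2 had a difference of 0.35 ± 0.18 in WT cells (limma adjusted p = 0.0984). It was called without library 5 of the agonist group, at 0.46 with an adjusted p of 0.0308, or without library 1 of the vehicle group, at 0.48 with an adjusted p of 0.0160. Car2, Upk3a and Ass1 had differences of 0.02 ± 0.08, -0.10 ± 0.18 and 0.07 ± 0.06, which did not pass.

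**Figure D2:**
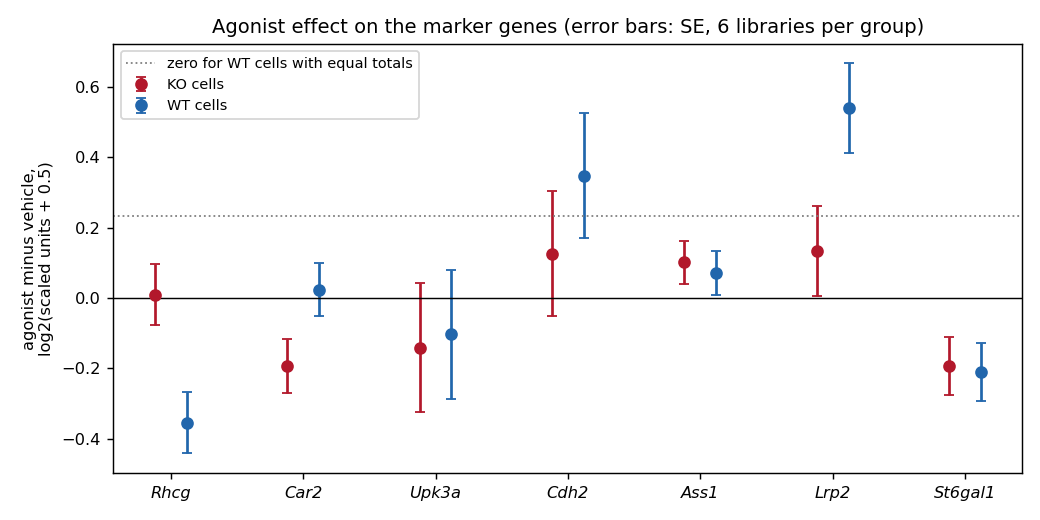
Agonist minus vehicle difference of each of the 7 genes in KO cells and in WT cells, on the log2(scaled units + 0.5) scale; bars are standard errors from limma (n = 6 libraries per group), and the dotted line at 0.23 is where 0 would lie for WT cells with equal library totals. The effects past an adjusted p of 0.05 are those of Lrp2, Rhcg and St6gal1 in WT cells.

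These agonist effects depend on how the libraries are scaled. Scaling each library to the same total moved the median difference of all rows in WT cells by -0.23, and 5 of 7 genes were then called. The shift was downward, so it put only the rise of Lrp2 to a test. Lrp2 kept its direction and its call, at 0.31. Rhcg and St6gal1, which had fallen, stood lower still, at -0.59 and -0.45, and were also called. Car2 then stood at -0.22 (limma adjusted p = 0.00359) and Ass1 at -0.17 (adjusted p = 0.0059), opposite in sign to their values with the deposited scaling.

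In KO cells limma called 0 of 7, where 9.30% of all rows were called, 4.66% higher and 4.64% lower. None of the 7 had separate agonist and vehicle libraries in KO cells, as 4.53% of all rows did. At an unadjusted p under 0.05 there were 2, Car2 and St6gal1, and voom called 0. Car2 had 356 to 450 scaled units in KO agonist libraries and 429 to 452 in KO vehicle libraries, a difference of -0.19 ± 0.08 (limma adjusted p = 0.102). St6gal1 had 22.2 to 33.0 in KO agonist libraries and 26.3 to 31.5 in KO vehicle libraries, also -0.19 ± 0.08 (limma adjusted p = 0.128). In each pair the agonist libraries spread more widely and overlapped the vehicle range. Library 2 of the agonist group held the highest value of both genes. Without it both were called, Car2 at -0.24 with an adjusted p of 0.0360 and St6gal1 at -0.26 with an adjusted p of 0.0232. The other 5 genes had differences between -0.14 and 0.13.

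The agonist effect itself differed between the lines for Rhcg alone, at an effect in KO cells minus that in WT cells of 0.36 ± 0.12 (limma adjusted p = 0.0198). Over all rows this interaction was called in 41.1%. The Rhcg effect was 0.01 ± 0.09 in KO cells, at 32 to 58 reads per library, and -0.35 ± 0.09 in WT cells. The interaction was not called by voom on the recovered reads (0.39, adjusted p = 0.147) or without library 6 of KO vehicle and library 2 of KO agonist together (0.29, adjusted p = 0.0516). For Lrp2 the interaction was -0.41 ± 0.18 (limma adjusted p = 0.0763). It was called without library 5 of KO agonist or library 1 of KO vehicle, and that of Car2 without library 2 of KO agonist. The other 5 interactions lay between -0.22 and 0.03. With the library totals made equal, the interactions of Ass1 (0.31, adjusted p = 0.00101) and St6gal1 (0.29, adjusted p = 0.0175) were also called.

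Within the WT line several of the 7 genes were high in the same libraries. WT vehicle libraries 3, 5 and 6 held the 3 highest values of Rhcg, Car2, Upk3a and St6gal1. Libraries 3 and 5 held the lowest Cdh2 values, at 7.91 and 7.92 scaled units, while library 1, the highest for Cdh2 at 19.2, was the lowest for Rhcg, Car2 and St6gal1. In the WT agonist group, library 5 was the highest for Car2 and Upk3a and the lowest for Cdh2. Markers of different cell types were thus high together in these libraries. Cdh2 was low in libraries 3 and 5 but not in library 6, at 13.0. Libraries 3, 5 and 6 of WT vehicle also had the higher totals of scaled units in their group, and the part of that total in the pattern was not tested.

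**Figure D3:**
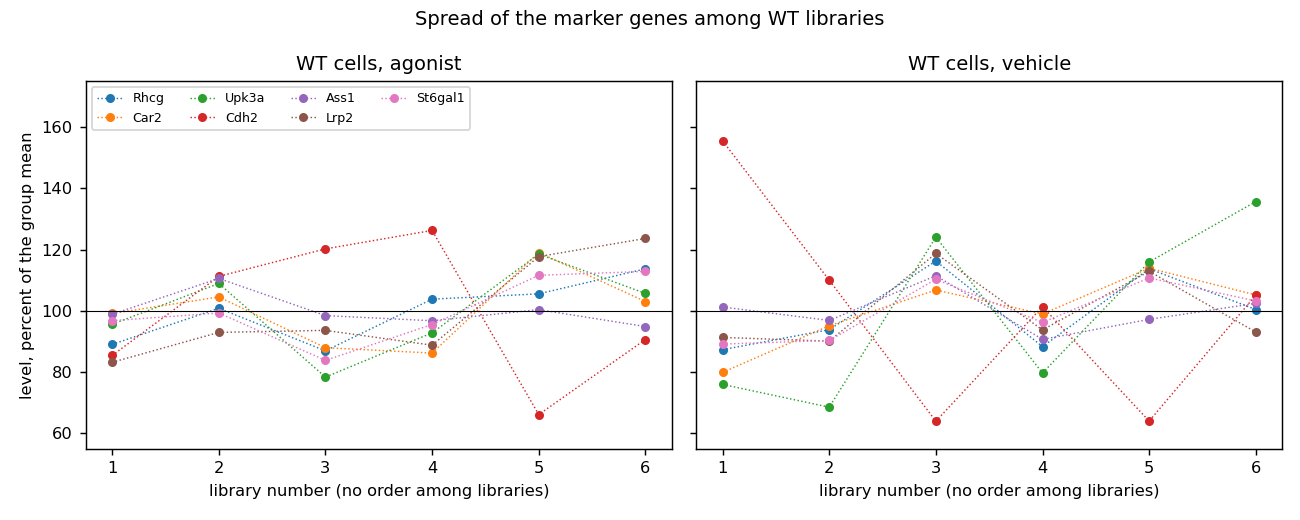
Level of each of the 7 genes in WT libraries as a percent of its group mean, by library number, with agonist at left and vehicle at right; lines join the values of a gene and the numbers have no order. Cdh2 runs opposite to Upk3a in several libraries, as in vehicle library 3.

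Other markers of the same cell types did not share a direction in KO cells. Over all rows, 47.8% were called in KO against WT under vehicle, 23.9% higher and 23.9% lower. Of 5 other intercalated cell markers past the filter, 2 were higher and 2 lower. Aqp6, a water channel of intercalated cell vesicles, rose to 51.4 ± 4.37 scaled units in KO cells, against 27.7 ± 4.13 in WT cells (SD, n = 6 each; limma adjusted p = 1.36e-06). Car12, a membrane-bound carbonic anhydrase, rose by a difference of 0.82 ± 0.10 (adjusted p = 5.69e-07). The proton pump subunits Atp6v1b1 and Atp6v0a4 fell, with differences of -0.43 ± 0.08 and -0.54 ± 0.10. Both lie on chromosome 6, where the median KO minus WT difference over 527 rows was itself -0.33. The part of that chromosome-wide shift in these 2 falls was not tested. The chloride and bicarbonate exchangers that define the acid-secreting and base-secreting types were near 0. Slc4a1 reached at most 1.37 scaled units in any library and Slc26a4 at most 1.53.

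Of 14 other urothelial markers, 3 were higher, 4 lower and 7 not called. Upk1b, the tetraspanin uroplakin, rose to 7.35 ± 0.986 scaled units in KO cells, against 2.56 ± 0.824 in WT cells (limma adjusted p = 5.86e-08). Upk2 rose by 0.64 ± 0.13 (adjusted p = 0.000251). Upk3b, a relative of Upk3a, fell to 155 ± 9.98 in KO cells, against 278 ± 31.5 in WT cells (adjusted p = 1.41e-08), and Krt20, a keratin of surface urothelium, fell by 0.94 ± 0.09. The uroplakin genes therefore lay on both sides of WT, with Upk3a far below the rest in KO cells relative to WT. Of the tetraspanins, Tspan15 had the widest difference, at -3.31 ± 0.15 (adjusted p = 5.6e-15).

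Of 6 other proximal tubule markers, 2 were higher, 1 lower and 3 not called. Without library 6 of KO vehicle, 2 were lower. Both higher genes averaged under 5 scaled units over all libraries, so 0 were higher with the filter at 5. Anpep, a brush border aminopeptidase, rose to 7.01 ± 0.362 scaled units in KO cells, against 1.29 ± 0.368 in WT cells (limma adjusted p = 4.7e-11). Cyp4b1, a cytochrome P450, rose by 2.31 ± 0.13 (adjusted p = 5.42e-13). Mme, the brush border endopeptidase neprilysin, fell to 6.58 ± 1.30 in KO cells, against 33.4 ± 7.09 in WT cells (adjusted p = 7.61e-12). The summed level of 8 other proximal markers in the table overlapped between the lines, at 79.8 to 103 scaled units in KO vehicle libraries and 86.0 to 115 in WT vehicle libraries. The sum of 7 other intercalated markers overlapped too, at 125 to 141 in KO vehicle libraries and 108 to 138 in WT vehicle libraries. The sum of 14 other urothelial markers was lower, at 2506 to 2777 in KO vehicle libraries and 2952 to 3386 in WT vehicle libraries. The widest gaps in it were those of Krt20 and Upk3b. Krt20 averaged 318 scaled units in KO vehicle and 611 in WT vehicle libraries, and Upk3b 155 and 278. The other markers in it went both ways, with Upk1b, Upk2 and Snx31 higher, Elf3 and Upk3bl lower and 7 not called. The part of any such list in the levels of the 7 genes was not tested.

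**Figure D4:**
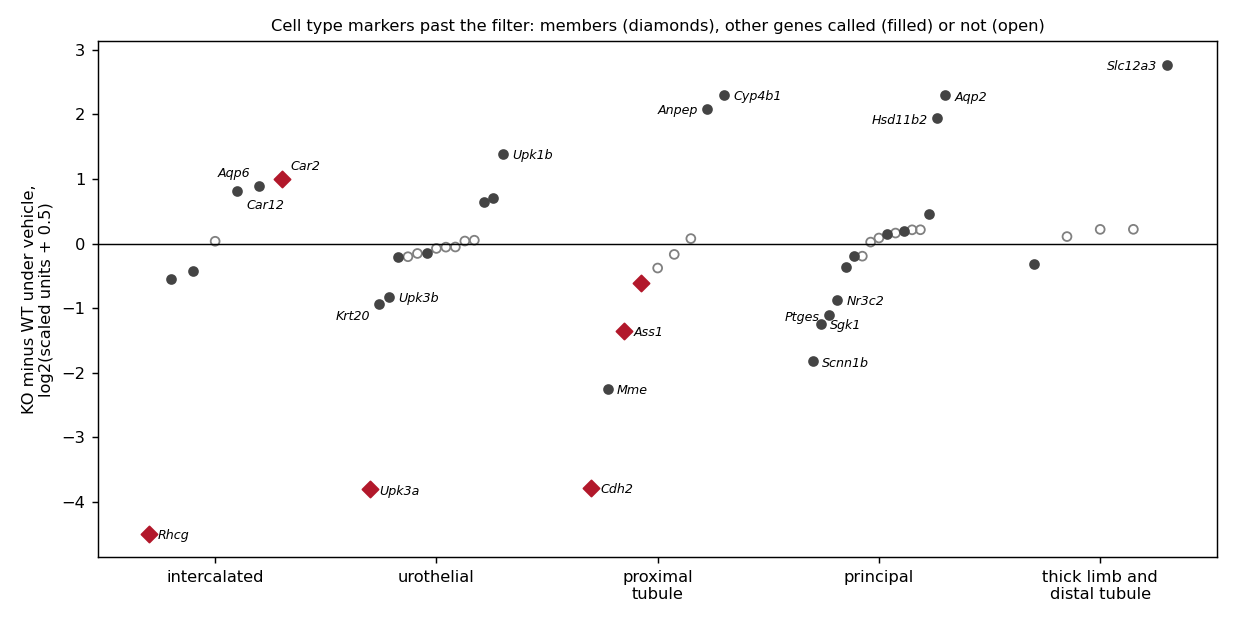
KO minus WT difference under vehicle, on the log2(scaled units + 0.5) scale, of every marker past the filter in 5 cell type lists; diamonds are the genes described here, filled circles other genes with an adjusted p under 0.05 in limma and open circles the others. Each list has called genes on both sides of 0.

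Markers of principal cells, the other cell type of the collecting duct, were present in both lines, and of 17 of them 5 were higher and 6 lower. Aqp2, the vasopressin-regulated water channel, rose to 87.3 ± 18.0 scaled units in KO cells, against 17.7 ± 4.94 in WT cells (limma adjusted p = 4.62e-11). Hsd11b2, which protects the mineralocorticoid receptor from glucocorticoid, rose by 1.94 ± 0.12. Scnn1b, a sodium channel subunit, fell by 1.83 ± 0.13 and Sgk1, a kinase that acts on that channel, by 1.24 ± 0.11. Their adjusted p-values were 1.54e-12, 1.65e-11 and 2.16e-09. Of 3 markers of fibroblasts, endothelium and immune cells past the filter, 1, Csf1r, was lower (-0.39 ± 0.09) and none was higher.

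Genes of the pathways around the 7 genes likewise lay on both sides of WT in KO against WT under vehicle. Over all rows 47.8% were called in this contrast, 23.9% higher and 23.9% lower. No list is read as having moved. Of 12 other Rh glycoprotein, carbonic anhydrase and bicarbonate transport genes, 2 were higher and 3 lower. Slc4a7, a sodium bicarbonate cotransporter, was among the lower, at -0.83 ± 0.07. Car9 was among the higher, at 0.67 ± 0.18, with a low level of 1.28 scaled units in KO vehicle libraries. Of 9 other cadherins and catenins, 4 were higher and 2 lower, the lower being Ctnna1 at -0.16 and Jup at -0.34. E-cadherin (Cdh1), the adhesion protein of most tubule epithelium, rose by 0.30 ± 0.05 to 979 ± 60.4 scaled units in KO cells, against 794 ± 22.0 in WT cells, and P-cadherin (Cdh3) rose by 0.72 ± 0.06. Both stood far above Cdh2 in either line. With agonist Cdh1 was lower in KO cells, at -0.58 ± 0.05 (limma adjusted p = 9.01e-10), where 64.1% of all rows were called in KO against WT. Among 12 other genes of the epithelial-mesenchymal switch, 4 were higher, including fibronectin (Fn1, 2.06 ± 0.15) and Twist1 (0.78 ± 0.07), and 4 lower. The lower ones included Cldn7, at -0.38.

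Of 11 other arginine and urea cycle genes, 4 were higher and 5 lower, where 23.9% of all rows were called higher and 23.9% lower. Arg1, which splits arginine into ornithine and urea, fell to 0.148 ± 0.0779 scaled units in KO cells, against 2.22 ± 0.692 in WT cells (limma adjusted p = 3.53e-11). The KO level of Arg1 lies below the pseudocount of 0.5, so the size of its log2 difference depends on that setting. Slc25a13, the mitochondrial carrier that supplies aspartate to argininosuccinate synthase, fell by 0.46 ± 0.06. Gamt and Ddah1 were among the higher genes of this list, with differences of 0.39 and 0.52. Of 21 other genes of megalin endocytosis and receptors related to megalin, 5 were higher and 8 lower. Lrp1, a close relative of megalin, fell by 0.99 ± 0.14, while Lrp11 rose by 1.09 ± 0.14. Of 16 other genes of sialic acid transfer and removal, 4 were higher and 4 lower. St3gal3 and Neu1 were among the higher, at 0.23 and 0.22. Cmas, which activates sialic acid, was among the lower, at -0.39 ± 0.05. Of 23 transcription factors of nephron and collecting duct, 5 were higher, including Gata2 at 0.99 ± 0.12, and 8 lower, including Maf at -1.04 ± 0.14.

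Some of these other genes also responded to agonist in WT cells, where 57.2% of all rows were called. Krt20 rose to 2313 scaled units in WT agonist libraries, against 611 in WT vehicle libraries, a difference of 1.92 ± 0.09 (limma adjusted p = 3.45e-15). Upk3b fell by 0.36 ± 0.08, Atp6v0a4 by 0.45 ± 0.10 and Mme by 0.48 ± 0.15, with adjusted p-values of 0.00074, 0.000504 and 0.0082. Cdh1 rose by 0.89 ± 0.05. All 5 kept their direction and call when the library totals were made equal. That scaling moved the median difference of all rows in WT cells by -0.23. It therefore put only the rises of Krt20 and Cdh1 to a test. Of the other genes checked that rose, Car12 and Lrp1 lost their call, at 0.08 and 0.20 (limma adjusted p = 0.528 and 0.229). The rest of those kept it. Other markers named above did not respond with the deposited scaling. Among them Atp6v1b1, Upk1b, Upk2 and Anpep had differences of 0.000438, -0.02, -0.20 and -0.02 in WT cells and were not called.

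Many other rows followed the same split between lines. Over the 24 libraries the row most like Rhcg was Micu2, with Pearson's r of 0.997 and Spearman's rho of 0.878. Micu2, a regulator of mitochondrial calcium uptake, was listed at 0 in all 12 KO libraries and averaged 78.9 ± 6.16 scaled units in WT vehicle libraries. Upk3a was most like Pdgfc (r = 0.992, rho = 0.915), Cdh2 most like Epb41l3 (r = 0.989, rho = 0.942) and Ass1 most like Sipa1l2 (r = 0.989, rho = 0.829). St6gal1 was most like Prom1 (r = 0.991, rho = 0.966) and Car2 most like Anpep (r = 0.979, rho = 0.933). Lrp2 had the loosest match, Zfp217 (r = 0.934, rho = 0.877). These values describe a step shared by 12 and 12 libraries, and any row with a clean step scores high.

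Rows next to Rhcg, Upk3a, Cdh2, Lrp2 and St6gal1 on their chromosomes did not show the step of those genes. Gene order is from RefSeq on GRCm38.p6, by name. Beside Rhcg, KO minus WT under vehicle was -0.26 ± 0.10 for Polg and 0.32 ± 0.10 for Ticrr. Beside Upk3a it was -0.31 ± 0.05 for 5031439G07Rik and -0.01 ± 0.09 for Fam118a, and beside Cdh2 it was 0.58 ± 0.15 for 4933424G05Rik and 0.20 ± 0.04 for Dsc2. Both neighbours of Lrp2, Dhrs9 (0.85 ± 0.10) and Bbs5 (0.25 ± 0.05), were higher in KO cells where Lrp2 was lower. Ass1 had Hmcn2, which was lower as Ass1 was, at -0.73 ± 0.11 and Fubp3 at -0.03 ± 0.04, and St6gal1 had Rfc4 at -0.16 ± 0.14 and Rtp4 at 0.40 ± 0.20. Car2 differed, since both neighbours were higher with it, Rbis at 0.35 ± 0.08 and A930001A20Rik at 1.73 ± 0.21. The last was low, at 2.72 ± 0.344 scaled units in KO cells and 0.504 ± 0.304 in WT cells. Reads of an overlapping gene could be shared if counting ignored strand, but whether it overlaps or shares reads with Car2 was not tested.

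**Figure D5:**
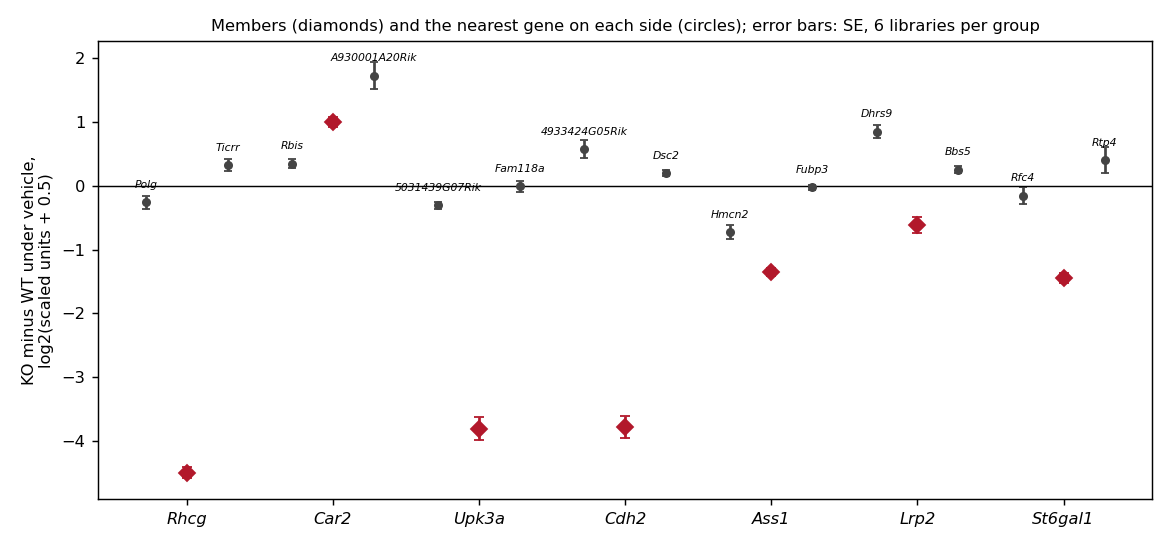
KO minus WT difference under vehicle of each of the 7 genes and of the nearest row past the filter on either side of it, on the log2(scaled units + 0.5) scale, with standard errors from limma. Neighbours lie between -0.73 and 1.73 and those of Rhcg, Upk3a and Cdh2 lie between -0.31 and 0.58, beside genes at -3.78 or lower.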

How the data were processed

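The deposited table gives, for 12224 rows, a gene length and the authors' signal in each of 24 libraries; 0 value columns had no sample. GRCm39 and the tools DESeq, DESeq2 and STAR 2.7.8a are named in the submitters' processing notes, without their roles. Each signal times length, divided by a factor per library, gave whole reads within 0.05 for at least 99.5% of values, so the values were handled as counts over a library factor and gene length. The whole table was multiplied by 1 constant, giving a mean column total of 1000000 scaled units. The factors stayed as deposited. Of the rows, 393 had a repeated name and 333 joined names; these were tested but not listed. The labels are silent on whether strand was used in counting and whether the 6 libraries of a group were separate cultures, so p-values measure only the spread between these samples. Library numbers ran by group, and library order and treatment cannot be told apart.

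Rows averaging 1 scaled unit or more were kept. All 24 libraries entered 1 model with a term per group on log2(scaled units + 0.5) in limma 3.58.1 (R 4.3.3), with trended, robust moderation and 20 residual degrees of freedom. Tests were two-sided, and a row was called at a Benjamini-Hochberg adjusted p below 0.05 over all rows kept. The fit was tested on simulated data. Intervals and errors at low reads cover the spread between libraries only.

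The 7 genes and the 14 lists were chosen with earlier results of these data known. The rule for names took the 7 genes, up to 4 called genes per list by smallest adjusted p in KO against WT under vehicle, the 3 rows most correlated with each of the 7 genes over 24 libraries, and the nearest row on each side by RefSeq order; the names of 10863 of 11014 rows were found there. Not all are printed, and 1 is not reported here. Repeated names such as Slc4a3 were left out of lists. Promoters were looked up by symbol, and 5 of 6 matched.

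Alternatives were the pseudocount (0.1, 2), the filter (none, a mean of at least 5), same-total and median ratio scaling, fitting only the groups compared, plain moderation, a replicate block and each library left out. Voom (on recovered reads) and the omission of library 6 of KO vehicle with library 2 of KO agonist were chosen after seeing the data. Replicate numbers were not taken to pair the samples in the main fit.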

Additional observations from a re-analysis of the deposited data

Results flagged for a closer look

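The agonist effect on Rhcg differed between the lines by a test of the difference itself. It was 0.36 on the log2(scaled units + 0.5) scale, KO minus WT, with an adjusted p of 0.0198 from limma. The effect was 0.01 in KO cells, where Rhcg had 32 to 58 reads per library, and -0.35 in WT cells. Voom on the recovered reads did not call the difference between the lines (0.39, adjusted p = 0.147). Nor did limma call it without library 6 of KO vehicle and library 2 of KO agonist together (0.29, adjusted p = 0.0516).

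In 2 groups a library stood apart from the other 5 by its gap to the nearest of them. For Ass1 in WT cells with agonist the highest library, number 2, stood at 268 scaled units, and its gap was 0.649 of the group's range, past Dixon's 95% critical value for 6 samples. For St6gal1 in KO cells under vehicle the lowest library, number 6, stood at 26.3 scaled units, with a gap of 0.652. That library stood apart over all rows as well. Chance alone marks about 1 in 20 groups this way, and 28 groups were examined.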

How the results depend on the processing

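KO minus WT kept its sign for all 7 genes under every alternative run. With the library totals made equal, the agonist effects in WT cells turned to -0.22 for Car2 and -0.17 for Ass1, 5 genes were called in WT cells, and 3 interactions among 7545 over all rows. The interactions of Car2, Upk3a and Cdh2 turned to 0.0596, 0.22 and 0.0320, and the KO minus WT difference of Fam118a to 0.00127. A pseudocount of 2 turned the interaction of Upk3a to 0.0313. Fitted on the KO groups alone, 1 of the 7 genes, Car2, was called in KO cells. The replicate numbers were not taken to pair the samples, but pairing was not excluded. Of 36 same-numbered pairs, 10 correlated above 0.1 in their deviations from group means, with a median r of 0.017 and a highest of 0.488. A library's closest match in another group had its own number in 16 of 72 cases. With the replicate block 2 interactions were called, Lrp2 (-0.41, adjusted p = 0.0448) beside Rhcg, and with voom 0; the block changed no other call of the 7 genes.

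With 1 library left out at a time, genes called for agonist in KO cells ran from 284 to 1851 against 1075 with all, lowest without library 1 of KO agonist and highest without library 2; the 7 genes had 0 to 2 calls there and 1 to 2 interactions. Effects that changed sign ran from -0.0388 to 0.0648 for Car2 in WT cells and from -0.0294 to 0.0606 for Rhcg in KO cells. Interactions ran from -0.153 to 0.0857 for Upk3a, -0.00569 to 0.0865 for Ass1 and -0.0524 to 0.0599 for St6gal1. KO minus WT ran from -0.0474 to 0.104 for Fam118a and from -0.213 to 0.0387 for Rfc4. Without library 6 of KO vehicle and library 2 of KO agonist together, 2623 genes and 2 of the 7 were called for agonist in KO cells and 0 interactions. Rhcg in KO cells then stood at -0.0598, the interactions of Ass1 and St6gal1 at -0.0102 and -0.0869, Fam118a at 0.104 and Rfc4 at 0.0387. The cause was not tested. With the filter at a mean of 5, low markers were not tested, and in KO against WT under vehicle 0 proximal and 1 urothelial marker were higher and 3 principal cell markers lower, against 2, 3 and 6. Depth limits Cdh2, Upk3a and Rhcg in KO cells, at 6 to 58 reads per library.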
